A study of Homo sapiens with 5 samples.

Results

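MicroRNAs of the megakaryoblastic line Meg-01 were compared with those of Jurkat, Raji, U937 and K562 on an nCounter panel of 654 human miRNA probes. Each of the 5 lines gave 1 sample of total RNA with a labelled input of 100 ng, and no treatment or genetic change is named for any of them. As background, Meg-01 was derived from chronic myeloid leukemia in blast crisis, and K562 is an erythroleukemic line from the same disease. Jurkat is a T-cell leukemia line, Raji a B-cell line from Burkitt lymphoma and U937 a monocytic line. A cultured line is a single transformed population, so a difference between lines belongs to those cultures and is not shown to belong to a lineage. A probe entered the comparison when it was above its background threshold in Meg-01 or in all 4 other lines, which gave 183 of the 654 probes. Of these, 178 were above the threshold in Meg-01, 93 in all 4 other lines and 88 in all 5 lines. There was no replicate of any line, so differences are given with counting error only and none was tested.

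A miRNA is a short RNA that guides an Argonaute protein to messenger RNAs, chiefly through bases 2 to 8 from its 5′ end, which are called the seed. Many miRNA genes lie in clusters that are transcribed together, and miRNAs with the same seed form families that can come from different chromosomes. In blood cells, miR-223 is known as a myeloid miRNA, miR-144 and miR-451 as erythroid ones, miR-150 and miR-181a as lymphoid ones, and miR-126 as a miRNA of megakaryocytes, hematopoietic progenitors and endothelium. The nCounter assay counts a color-coded reporter for each miRNA without amplification.

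The mature sequences of the miRNAs that set Meg-01 apart, or that show its families, are printed 5′ to 3′ with the seed in capitals, as RefSeq gives them for GRCh38.p14. The first 8 come from genes of the large cluster on chromosome 14 and were at least 2-fold higher in Meg-01 than in every other line. Their seeds were all different.
miR-377: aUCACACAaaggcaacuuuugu
miR-495: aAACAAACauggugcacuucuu
miR-376c: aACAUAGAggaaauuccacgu
miR-376a: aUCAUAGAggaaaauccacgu
miR-136: aCUCCAUUuguuuugaugaugga
miR-431: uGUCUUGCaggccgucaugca
miR-369-3p: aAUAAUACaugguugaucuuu
miR-543: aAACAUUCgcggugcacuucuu
The pair miR-376a and miR-376c is equal at 19 of 21 positions. With positions counted from 1 at the 5′ end and miR-376a given first, the differences are U2A, inside the seed, and A14U. The next 4 are of the miR-99/100 and miR-125 families, in which miR-99a and miR-125b were set apart in Meg-01.
miR-99a: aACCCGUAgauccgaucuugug
miR-100: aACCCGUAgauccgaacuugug
miR-125b: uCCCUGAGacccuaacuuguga
miR-125a-5p: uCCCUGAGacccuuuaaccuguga
miR-99a and miR-100 differ by U16A alone, and miR-125b and miR-125a-5p share the seed and 15 of 22 compared positions. The next 3 share the seed AGCAGCA, and miR-15a and miR-16 were the 2 miRNAs lower in Meg-01 than in every other line.
miR-15a: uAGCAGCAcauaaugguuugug
miR-16: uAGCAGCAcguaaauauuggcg
miR-15b: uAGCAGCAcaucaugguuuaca
The last 4 are the other 3 that were higher than in every line, and miR-126, which was abundant in Meg-01 and K562.
miR-144: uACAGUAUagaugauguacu
miR-335: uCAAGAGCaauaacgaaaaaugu
miR-1246: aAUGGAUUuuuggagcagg
miR-126: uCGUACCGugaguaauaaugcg

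Counts summed over the human probes ran from 66892 in Raji to 130048 in Jurkat, with 109731 in Meg-01, and the 8 negative control probes read 8 to 47 counts over all lines. Normalized counts are raw counts scaled by the geometric mean of the 100 probes highest on average over the lines, and the threshold of a line is the mean plus 2 SD of its scaled negative controls. On this scale the threshold of Raji was highest, at 72.4, followed by K562 at 42.3, U937 at 36.4, Meg-01 at 31.2 and Jurkat at 28.2. A ratio is Meg-01 over another line in normalized counts, and where the other line was at or below its threshold, the threshold took its place and the ratio is a lower bound. Equal raw counts correspond to ratios of 0.921 against Jurkat, 0.711 against U937, 0.606 against K562 and 0.470 against Raji, so a probe near background in both lines can read as lower in Meg-01 than in Raji. At the edge of detection in Meg-01, miR-454, miR-555, miR-520g and miR-1977 were just above the threshold at 31.9 normalized counts, and miR-133b, miR-1825, miR-184 and miR-626 just below it at 31.1.

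The labelled identity of Meg-01 was set against miRNAs known from blood lineages. Of 10 megakaryocyte and progenitor probes, 8 were above the threshold in Meg-01, beside 27.2% of all human probes, and 6 were in Jurkat, 6 in U937, 5 in K562 and 1 in Raji, so detection of this list did not single out Meg-01. miR-126 led them with 1954 raw counts, and miR-130a, at 9 counts in Meg-01 and 6 to 10 in the other lines, was not detected anywhere. Of the erythroid miRNAs, all 3 on the panel were detected in Meg-01 and K562 and none in the other lines. miR-223 and both miR-142 arms were detected in all 5 lines. Of 6 lymphoid probes, 3 were detected in each of Meg-01, Raji, U937 and K562, and 5 in Jurkat. miR-181a was among the 3 in Meg-01 and within 2-fold of Jurkat. miR-150 had 13 raw counts in Meg-01, below the threshold, and 1030 in Jurkat.

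The 10 most abundant miRNAs held 63.9% of the summed normalized counts above the threshold in Meg-01. miR-142-3p, which is broadly expressed in blood cells, was first with 18315 raw counts and 18.6% of that sum. It was followed by miR-92a of the miR-17-92 cluster, with 15661 counts and 15.9%. The probe miR-720, whose sequence is known as a tRNA fragment, had 7308 counts. The shared probe for miR-20a and miR-20b had 5882, miR-19b 4212, miR-223 3269, miR-181a 2417, miR-15b 2357, miR-126 1954 and miR-21 1486. These ranks are of probe counts, and different probes are not on a common scale.

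Against Jurkat, 42 of the 183 members (23.0%) were at least 2-fold higher in Meg-01 and 22 (12.0%) at least 2-fold lower. Against Raji, 24 (13.1%) were higher and 42 (23.0%) lower. Against U937, 31 (16.9%) were higher and 21 (11.5%) lower, and against K562, 28 (15.3%) were higher and 33 (18.0%) lower. All 4 comparisons share the same Meg-01 sample. The balance of the Raji and K562 comparisons turned with the scaling. After scaling to the positive controls it was 46 higher and 11 lower against Raji, and 45 higher and 13 lower against K562. With each of 6 scalings, 42, 24, 29 and 28 members stayed higher than in Jurkat, Raji, U937 and K562, and 14, 10, 13 and 11 stayed lower. Relative to the scaling used here, those alternatives moved all log2 ratios by -0.06 to 1.09.

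**Figure D1:**
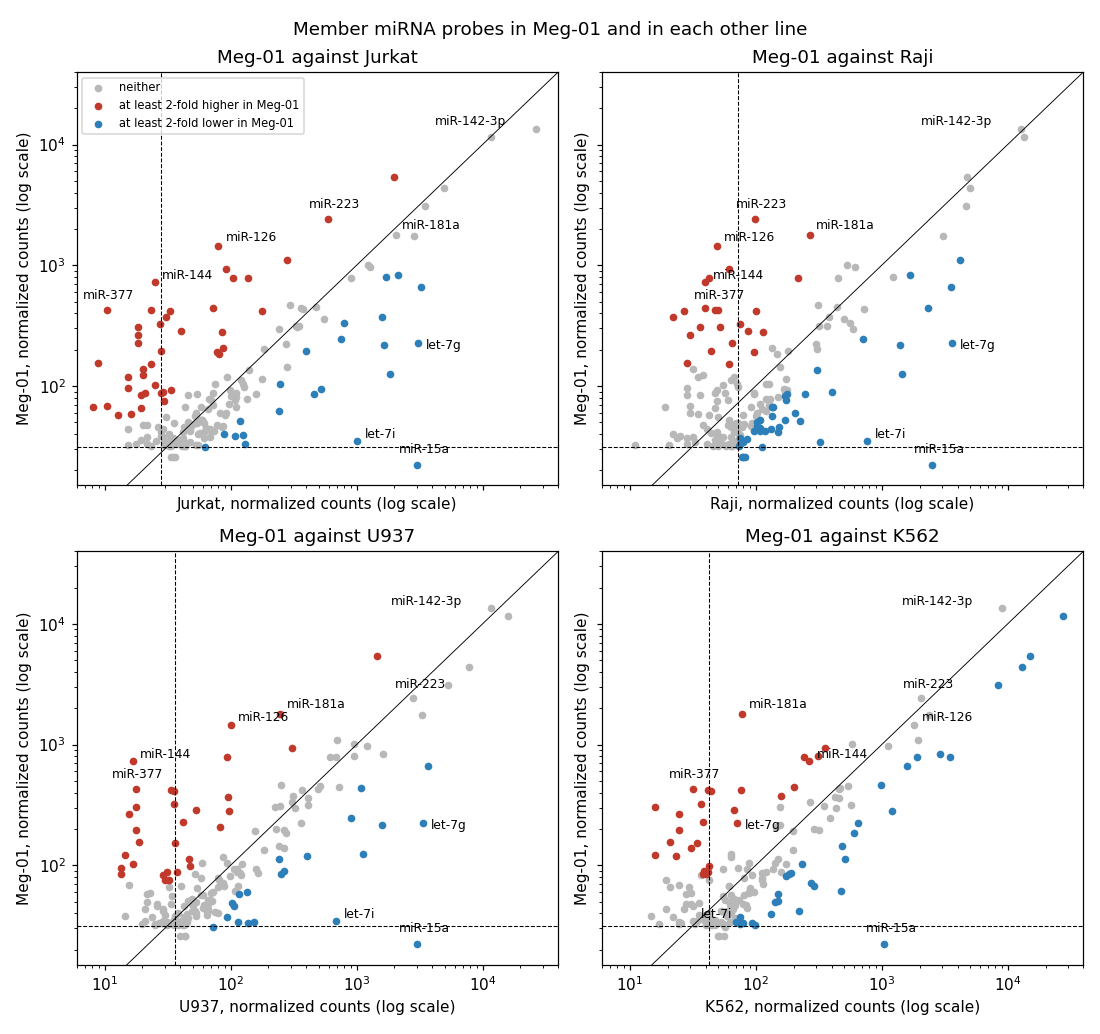
Each panel plots the normalized counts of the 183 member probes in Meg-01 (vertical, log scale) against another line (horizontal, log scale). Red points were at least 2-fold higher in Meg-01 and blue points at least 2-fold lower, dashed lines are the thresholds of both lines and the solid line marks equality. miR-15a lies under the Meg-01 threshold in every panel, miR-377 lies left of the other line's threshold in every panel, and let-7g changes side between the K562 panel and the other 3.

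Over all members, the median log2 ratio, bounds included, was -0.05 against Jurkat, -0.79 against Raji, -0.19 against U937 and -0.38 against K562. Where both lines were above their thresholds, 103 of 142 members were within 2-fold of each other against Jurkat, 52 of 97 against Raji, 99 of 132 against U937 and 89 of 133 against K562. Of the 183, 62 passed the 2-fold limit in no comparison, and 12 were higher than in at least 1 line and lower than in another.

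In every comparison at once, 13 members (7.10%) were at least 2-fold higher in Meg-01, and 2 (1.09%) at least 2-fold lower. The same rule was applied to each of the other lines over all 654 human probes. It gave 11 higher and 4 lower for K562, 7 and 2 for Raji, 6 and 1 for Jurkat, and 1 and 0 for U937. Thresholds differ between the lines, so these numbers do not stand on an equal footing. All 13 higher ones stayed so with each of the 6 scalings. Of the 2 lower ones, miR-15a did and miR-16 did not.

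**Figure D2:**
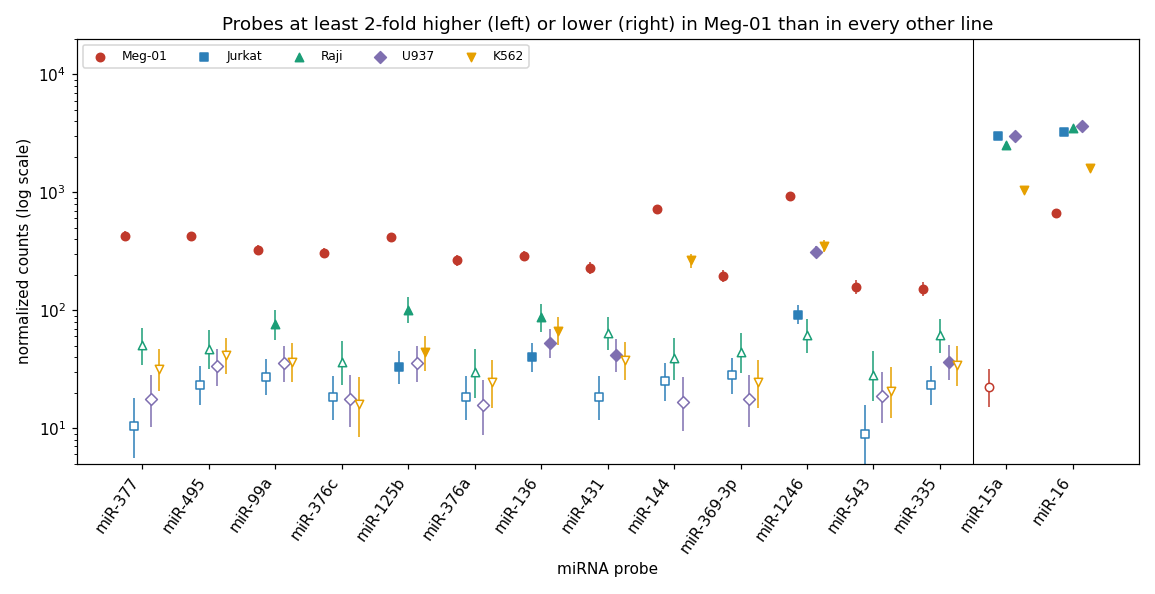
Normalized counts (log scale) of the 13 probes at least 2-fold higher in Meg-01 than in every other line, and right of the vertical line of the 2 lower ones, with a symbol per line and bars for the 95% Poisson interval. Open symbols are at or below the threshold of their line. Of the 13, 6 were open in all 4 other lines, and miR-15a was open in Meg-01 alone.

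The genes of the chromosome 14 cluster supplied 8 of the 13, beside 30 of the 183 members. This cluster lies in the imprinted DLK1-DIO3 region, where the miRNA genes are known to be expressed from the maternal chromosome. miR-377 (MIR377, chr14:101062094-101062115, plus strand) had 579 raw counts in Meg-01, 26 in K562, 32 in Raji, 17 in U937 and 13 in Jurkat. The other lines were all below their thresholds, and Meg-01 was at least 5.93-fold higher than Raji and at least 15.2-fold higher than Jurkat. miR-495 had 573 counts in Meg-01, 34 in K562, 30 in Raji, 32 in U937 and 29 in Jurkat, which again were all below the thresholds. Its bounds ran from at least 5.87-fold over Raji to at least 15.1-fold over Jurkat.

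The related pair miR-376c and miR-376a behaved alike although their seeds differ. They are equal at 19 of 21 positions, and how far their probes read each other's miRNA was not tested. miR-376c had 414 counts in Meg-01, 13 in K562, 23 in Raji, 17 in U937 and 23 in Jurkat. miR-376a had 358 in Meg-01, 20 in K562, 19 in Raji, 15 in U937 and 23 in Jurkat. Both were detected in Meg-01 only, at least 4.24-fold and 3.67-fold above Raji, where the bound was lowest.

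miR-136 was the member of the 8 with counts above the threshold in every line. It had 387 counts in Meg-01, 55 in K562, 55 in Raji, 51 in U937 and 50 in Jurkat. Its measured ratios were 7.13 (95% interval 5.30 to 9.77) against Jurkat, 5.39 (4.02 to 7.37) against U937, 4.27 (3.21 to 5.77) against K562 and 3.30 (2.49 to 4.47) against Raji. The gene MIR136 lies within RTL1 in the annotation, as does MIR431. miR-431 had 309 counts in Meg-01, 31 in K562, 41 in Raji, 40 in U937 and 23 in Jurkat, and of these other lines only U937 was above its threshold, with a ratio of 5.49 (3.94 to 7.83).

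Of the last 2, miR-369-3p had 264 counts in Meg-01, 20 in K562, 28 in Raji, 17 in U937 and 35 in Jurkat. Its bound was lowest against Raji, at 2.70. miR-543 had 211 in Meg-01, 17 in K562, 18 in Raji, 18 in U937 and 11 in Jurkat, with a lowest bound of 2.16. The next of the cluster, miR-337-3p, had 165 in Meg-01, 13 in K562, 24 in Raji, 14 in U937 and 25 in Jurkat. It was detected in Meg-01 only, and missed the limit because the Raji bound was 1.69.

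All miRNA genes that the RefSeq table places from MIR770 to MIR656 were then counted. That list was added after the values had been seen, so its counts describe the 8 and their neighbors and give no independent support. The table held 52 genes there, with 54 probes on the panel. Above the threshold were 30 of the 54 probes in Meg-01, 13 in Jurkat, 9 in U937, 8 in K562 and 4 in Raji. The share in Meg-01 was 55.6% of these probes beside 27.2% of all human probes.

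Most probes detected in Meg-01 alone belonged to these genes. Of the 21 probes above the threshold in Meg-01 and in no other line, 20 belonged to the 54. Among all 178 probes detected in Meg-01, 30 belonged to the 54. The other of the 21 was miR-146b-5p, which had 48 counts in Meg-01. Over all 54 probes, detected or not, the median raw count was 48.5 in Meg-01, 22.5 in K562, 27 in Raji, 25.5 in U937 and 25.5 in Jurkat. Meg-01 had the highest normalized count of the 5 lines in 21 of the 54. All 21 were among the 30 detected in Meg-01. Over all 178 probes detected in Meg-01, it was highest in 31, these 21 included. The 30 probes made up 5.02% of the summed normalized counts above the threshold in Meg-01.

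Of the 54 probes, 16 were at least 2-fold higher in Meg-01 than in Jurkat (23.0% of all members), 12 than in U937 (16.9%), 10 than in K562 (15.3%) and 8 than in Raji (13.1%), while 24 of the 54 were no members. Over the 6 scalings these counts ran from 16 to 20, 11 to 18, 10 to 16 and 8 to 13. All of them lie among the 30 detected in Meg-01, of which 20 were detected in no other line, so the way the probes entered favors higher calls, and no median over the 30 is given. The lower call against Raji was miR-544, which had 182 raw counts in Meg-01, 163 in K562, 195 in Raji, 177 in U937 and 175 in Jurkat. It did not follow its neighbors, and neither did miR-494, with 117 counts in Meg-01 and 157 in U937.

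**Figure D3:**
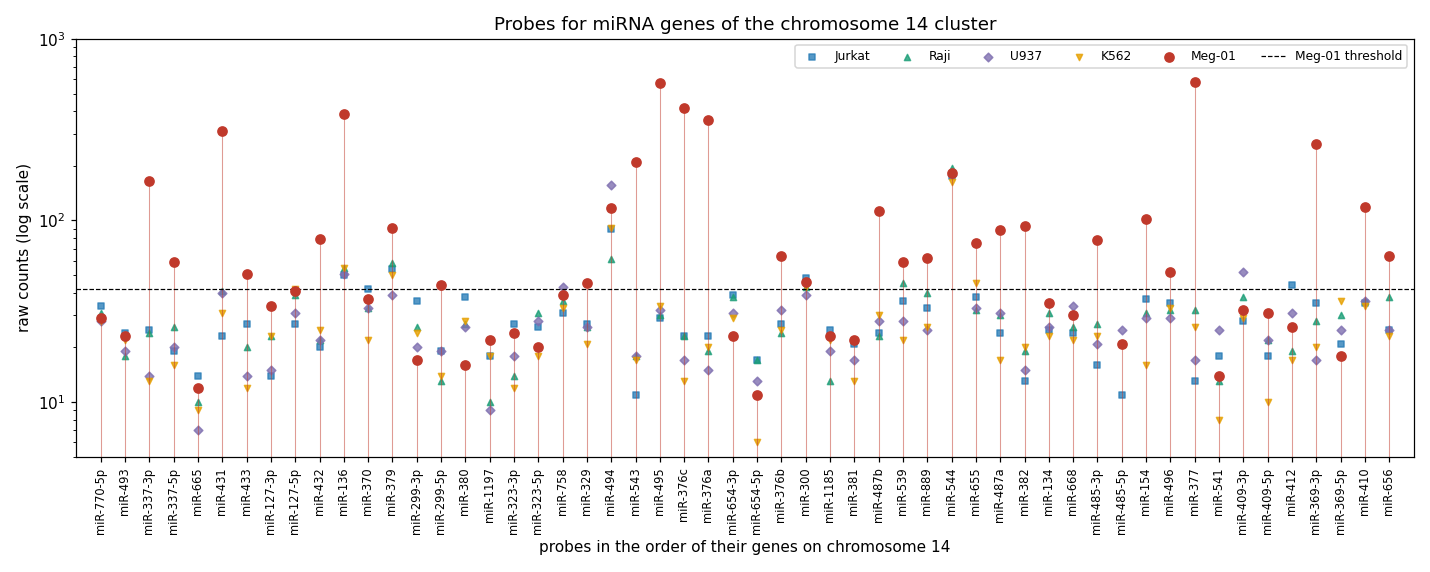
Raw counts (log scale) of the 54 probes for miRNA genes of the chromosome 14 cluster in each line, ordered along the chromosome by gene. Large red points are Meg-01 and the dashed line is its threshold of 42.1 raw counts. The 8 probes from miR-431 to miR-369-3p that were set apart stand above the other 4 lines, while miR-544 was alike in all 5 lines and miR-127-3p, miR-134 and miR-493 were below the Meg-01 threshold.

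The high probes were spread along the cluster and lay between others that were not detected. miR-127-3p had 34 raw counts in Meg-01, miR-134 35, miR-409-3p 32, miR-493 23 and miR-654-3p 23, all under the 42.1 that the threshold equals in raw counts. Both arms of a hairpin also differed in Meg-01. miR-369-3p had 264 counts and miR-369-5p 18, miR-337-3p 165 and miR-337-5p 59, and miR-485-3p 78 and miR-485-5p 21. Levels of different probes are not on a common scale, so these differences between arms are differences between probes.

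The miR-99/100 and miR-125 families held 2 more of the 13. Their members are encoded in trios with let-7 genes, and miR-125b is known to act in megakaryocyte progenitors. miR-99a (MIR99A, chr21:16539101-16539122, plus strand, within MIR99AHG) had 437 counts in Meg-01, 30 in K562, 48 in Raji, 34 in U937 and 34 in Jurkat. Raji alone of the others was above its threshold, with a ratio of 4.28 (3.17 to 5.89), and the bounds over the rest were 7.65 to 11.5. miR-125b, which comes from MIR125B1 within MIR100HG on chromosome 11 and from MIR125B2 within MIR99AHG on chromosome 21, had 560 counts in Meg-01, 36 in K562, 64 in Raji, 34 in U937 and 41 in Jurkat. Its ratio was 12.6 (9.15 to 17.7) against Jurkat, 9.43 (6.73 to 13.6) against K562 and 4.11 (3.17 to 5.41) against Raji, and at least 11.4 against U937.

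The neighbors of both loci did not match. miR-100, which differs from miR-99a by U16A, had 40 counts in Meg-01, 26 in K562, 27 in Raji, 19 in U937 and 24 in Jurkat and was below the threshold in every line. let-7c, from the gene next to MIR99A, had 115 in Meg-01, 33 in K562, 61 in Raji, 50 in U937 and 67 in Jurkat. It passed 2-fold against K562 only, with a bound of 2.01. How far the probes of the family read each other's miRNA was not tested.

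The related trio of miR-99b, let-7e and miR-125a-5p was within 2-fold of K562, and let-7e was within 2-fold of U937 too. miR-125a-5p had 500 counts in Meg-01 and 350 in K562, while U937 had 92, Raji 14 and Jurkat 38. It was 12.1-fold (8.70 to 17.3) higher than in Jurkat and 3.86-fold (3.09 to 4.88) higher than in U937, while the ratio to K562 was 0.866 (0.754 to 0.996). The K562 ratio was above 1 without scaling, with the positive controls, with the sum of the probes and with the median of ratios. miR-99b had 118 in Meg-01 and 98 in K562, and 26 to 30 in the other lines, which were below their thresholds. let-7e had 260 in Meg-01, 163 in K562, 61 in Raji, 149 in U937 and 97 in Jurkat. Over the 4 family members detected in Meg-01, 4 were higher than in Jurkat (23.0% of all members) and 4 than in U937 (16.9%). Against Raji 3 were higher (13.1%) and against K562 2 (15.3%), with 0 lower under any of the 6 scalings. None of these members was detected in all 4 other lines, so all entered through Meg-01, which favors higher calls over lower ones.

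Of the last 3 of the 13, miR-144 is known to be made with miR-451 in red cell precursors. miR-144 had 981 counts in Meg-01, 216 in K562, 31 in Jurkat, 25 in Raji and 16 in U937. It was 2.75-fold (2.37 to 3.21) higher than in K562 and at least 25.8-fold higher than in Jurkat. miR-451 had 129 in Meg-01, 59 in K562 and 13 to 19 in the rest. Its ratio to K562 was 1.33 (0.967 to 1.84), an interval that includes 1. Without scaling, with the positive controls and with the median of ratios, miR-451 was at least 2-fold higher than in every line. miR-486-3p, also known from red cells, had 138 in Meg-01 and 143 in K562. All 3 erythroid members were thus detected in Meg-01 and K562 and in none of the other 3 lines.

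miR-335, from a gene within the imprinted MEST on chromosome 7 (chr7:130496126-130496148, plus strand), had 206 counts in Meg-01, 28 in K562, 39 in Raji, 35 in U937 and 29 in Jurkat. Its lowest ratio was a bound of 2.11 against Raji. miR-1246, whose sequence is known to overlap that of the U2 small nuclear RNA, had 1264 in Meg-01, 289 in K562, 39 in Raji, 297 in U937 and 114 in Jurkat. Its ratio was 10.2 (8.42 to 12.5) against Jurkat, 3.02 (2.66 to 3.44) against U937 and 2.65 (2.33 to 3.02) against K562.

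The largest difference of any member in these comparisons went the other way and concerned miR-15a. Its gene lies beside MIR16-1 in an intron of the noncoding DLEU2 on chromosome 13 (chr13:50049167-50049188, minus strand), a locus known for its loss in chronic lymphocytic leukemia. miR-15a had 30 raw counts in Meg-01, within the range of the negative controls of that line, 8 to 44. It had 860 in K562, 1599 in Raji, 2902 in U937 and 3746 in Jurkat. With the threshold in place of the Meg-01 value, the ratio was at most 0.0103 against Jurkat, 0.0124 against Raji, 0.0103 against U937 and 0.0297 against K562.

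miR-16, which shares its seed and comes from MIR16-1 on chromosome 13 and from MIR16-2 on chromosome 3, was detected in Meg-01. It had 895 counts in Meg-01, 1308 in K562, 2234 in Raji, 3512 in U937 and 4025 in Jurkat. The ratio was 0.205 (0.190 to 0.220) against Jurkat, 0.188 (0.174 to 0.203) against Raji, 0.181 (0.168 to 0.195) against U937 and 0.415 (0.381 to 0.452) against K562. The last of these went past 0.5 without scaling, with the positive controls, with the sum of the probes and with the median of ratios.

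miR-15b, whose gene lies next to MIR16-2 on chromosome 3, had the eighth highest probe count of Meg-01. It had 2357 counts in Meg-01, 1951 in K562, 1927 in Raji, 3189 in U937 and 3560 in Jurkat. Its ratios lay between 0.525 (0.498 to 0.554) against U937 and 0.732 (0.689 to 0.778) against K562, inside the 2-fold limit in every comparison. So the miRNA from the chromosome 13 locus alone was not detected, the one from chromosome 3 alone was within 2-fold of every line, and the one from both loci lay between them in its ratios. miR-15a and miR-15b are equal at 18 of 22 positions, and how far their probes read each other's miRNA was not tested. Of the 5 members of the miR-15/16 family, 2 were lower than in Jurkat (12.0% of all members), 3 than in Raji (23.0%), 3 than in U937 (11.5%) and 2 than in K562 (18.0%), and over the 6 scalings those against Raji, U937 and K562 went down to 2, 2 and 1. None was higher, beside the 13.1% to 23.0% of all members.

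Most of the let-7 family was low in both Meg-01 and K562. The family is known to be low in stem and progenitor cells and to rise with differentiation. let-7g had 305 counts in Meg-01, 58 in K562, 2302 in Raji, 3219 in U937 and 3804 in Jurkat, a ratio of 0.0622 (0.0550 to 0.0701) against Raji and of 3.19 (2.40 to 4.30) against K562. let-7i had 47 in Meg-01, 26 in K562, 486 in Raji, 663 in U937 and 1251 in Jurkat. let-7d had 169 in Meg-01, 52 in K562, 924 in Raji, 1075 in U937 and 2269 in Jurkat.

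let-7f, with 293 in Meg-01 and 2057, 889 and 1539 in Jurkat, Raji and U937, had 127 in K562. let-7a was nearer the others, at 1083 in Meg-01, 256 in K562, 774 in Raji, 911 in U937 and 2143 in Jurkat. Of the 7 members, 5 were lower than in Jurkat (12.0% of all members), 4 than in Raji (23.0%) and 4 than in U937 (11.5%), and none than in K562 (18.0%), where 3 were higher (15.3%), a count that ran from 3 to 5 over the 6 scalings, as the one lower than in Jurkat ran from 4 to 5. let-7e was higher than in Jurkat (23.0%) and Raji (13.1%). The median log2 ratio was -2.93, -2.69 and -2.89 against those 3 lines and 0.98 against K562, and kept these signs under each of the 6 scalings. let-7b and miR-98, at 39 and 31 counts in Meg-01, were below the threshold and no members.

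**Figure D4:**
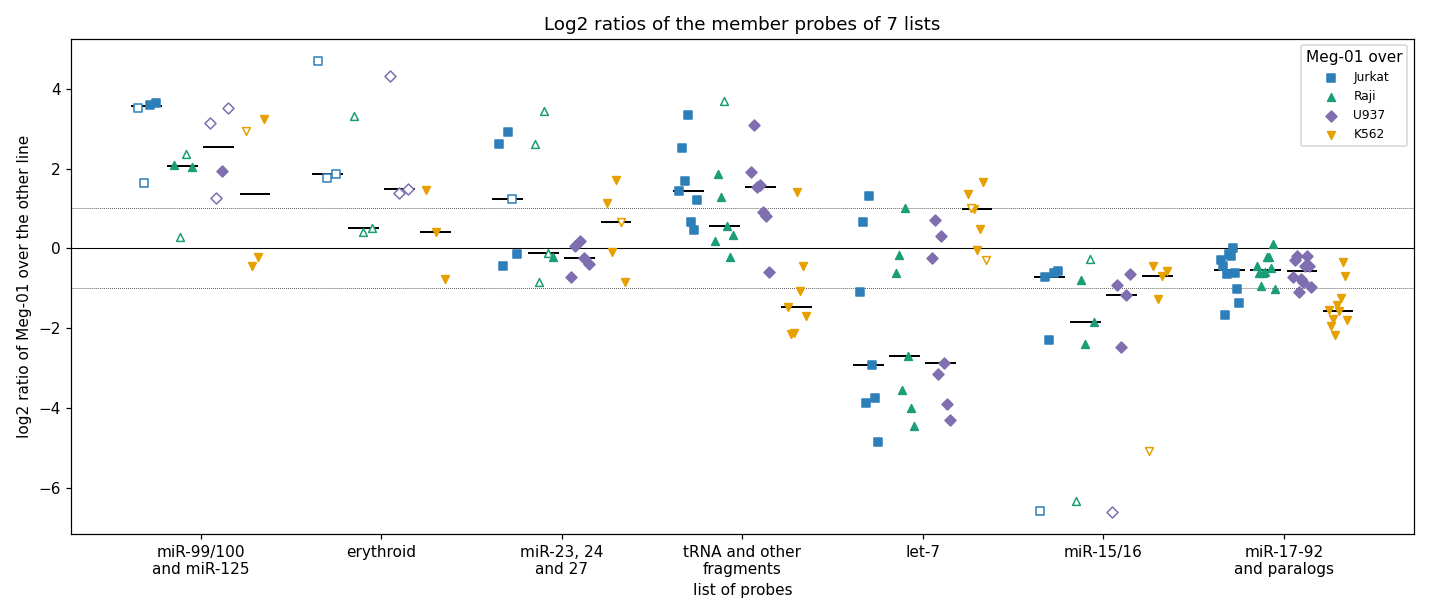
Log2 ratio of Meg-01 over each other line for the member probes of 7 lists, with a symbol and color per line. Open symbols are bounds, black bars are the median of a list and line, and dotted lines mark 2-fold. The let-7 median is below -2 against Jurkat, Raji and U937 and near 1 against K562, and the miR-17-92 probes lie lowest against K562.

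Against K562, the line of the same disease, 2 lists held 8 and 5 of the 33 lower calls. The first was the miR-17-92 cluster with its paralogs, which include known oncogenic miRNAs driven by MYC. Of its 10 members, 8 were lower in Meg-01 than in K562, beside 18.0% of all members, and none higher, and 4 to 8 were lower over the 6 scalings. miR-92a had 15661 counts in Meg-01 and 22639 in K562, a ratio of 0.419 (0.411 to 0.428), while Jurkat had 14415. miR-19a had 153 in Meg-01, 417 in K562, 110 in Raji, 231 in U937 and 221 in Jurkat, with a ratio to K562 of 0.222 (0.184 to 0.268). The list median was -1.56 against K562 beside -0.38 over all members, and -0.53 to -0.58 against the other 3 lines, where that against Raji turned to 0.56 under another scaling.

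The second list was the probes for tRNA and other RNA fragments. miR-1274a had 1061 counts in Meg-01, 2860 in K562, 137 in Raji, 89 in U937 and 172 in Jurkat. It was 8.47-fold (6.82 to 10.6) higher than in U937 and had a ratio of 0.225 (0.209 to 0.241) to K562. miR-1274b had 378 in Meg-01, 996 in K562, 73 in Raji, 93 in U937 and 107 in Jurkat. miR-720 had 7308 in Meg-01, 12331 in K562, 3017 in Raji, 1382 in U937 and 2469 in Jurkat. Of 7 members, 5 were higher than in Jurkat (23.0% of all members), 4 than in U937 (16.9%) and 3 than in Raji (13.1%), while 5 were lower than in K562 (18.0%), a count that ran from 2 to 5 over the scalings. The higher counts ran from 5 to 6 against Jurkat, 4 to 6 against U937 and 3 to 6 against Raji. miR-1246 was the member of this list that was higher than in K562. Whether RNA quality has a part in these probes was not tested. miR-1974 had 56 counts in Meg-01, 28 to 35 in the other 3 lines and 181 in K562, and miR-130b, with 83 in Meg-01 and 391 in K562, had a ratio of 0.129 (0.100 to 0.163).

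miR-126, from a gene within EGFL7 on chromosome 9 (chr9:136670653-136670674, plus strand), had 1954 counts in Meg-01 and 1482 in K562, while U937 had 96, Raji 31 and Jurkat 99. It was 18.2-fold (14.8 to 22.5) higher than in Jurkat and 14.5-fold (11.8 to 17.9) higher than in U937. It was higher than in Raji by a bound of 4.32 on the log2 scale, and the ratio to K562 was 0.799 (0.747 to 0.856). miR-126 was above K562 without scaling and with the positive controls, the sum of the probes or the median of ratios. Of the other 7 members of its list, miR-199b-5p had 187 counts in Meg-01, 255 in U937 and 20 to 25 in Jurkat, Raji and K562, and miR-196b had 160 in Meg-01, 388 in U937 and 19 to 22 in those 3 lines. miR-196a went lower, with 45 in Meg-01, 161 in Jurkat and 132 in U937. Of the 8 members, 4 were higher and 1 lower than in Jurkat (23.0% and 12.0% of all members), 1 and 1 than in Raji (13.1% and 23.0%), 1 and 2 than in U937 (16.9% and 11.5%), and 2 and 2 than in K562 (15.3% and 18.0%). Against Raji the split turned with the scaling, from 1 higher and 1 lower to as many as 4 higher and 0 lower.

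miR-223 was within 2-fold of both U937 and K562 in Meg-01, and the miR-23a cluster within 2-fold of U937. miR-223 had 3269 counts in Meg-01, 1684 in K562, 62 in Raji, 2682 in U937 and 732 in Jurkat. It was 24.8-fold (19.3 to 32.4) higher than in Raji, and its ratio was 0.866 (0.823 to 0.912) against U937 and 1.18 (1.11 to 1.25) against K562. miR-24 had 1063 in Meg-01, 196 in K562, 27 in Raji, 663 in U937 and 130 in Jurkat, and miR-23a 597, 165, 25, 701 and 90 in the same order. Both were higher than in Jurkat, Raji and K562, as was miR-221 with 568, 62, 17, 355 and 220, and none of the 3 passed 2-fold against U937 in either direction. miR-27a, the third miRNA of the miR-23a cluster, had 90 counts in Meg-01 and 76 in U937 and 10 to 24 in the rest.

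miR-181a, known from lymphocytes and early progenitors, was within 2-fold of Jurkat in Meg-01. It had 2417 counts in Meg-01, 64 in K562, 171 in Raji, 238 in U937 and 2551 in Jurkat. The ratio was 22.9 (17.9 to 29.8) against K562 and 0.872 (0.825 to 0.922) against Jurkat. The shared probe for miR-181b and miR-181d was also within 2-fold of Jurkat, with 132 counts in Meg-01 and 158 in Jurkat. The third lymphoid member, miR-342-3p, had 127 in Meg-01 and 652 in Jurkat, a ratio of 0.179 (0.147 to 0.217).

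Beyond miR-15a and miR-16, the members nearest to being lower than in every line were weaker. miR-25 had 1126 counts in Meg-01, 2380 in K562, 1068 in Raji, 1560 in U937 and 2664 in Jurkat, with a highest ratio of 0.513 (0.475 to 0.554) against U937, and without scaling it was no longer lower than in Raji. miR-148a had 333 in Meg-01, 317 in K562, 449 in Raji, 872 in U937 and 940 in Jurkat, and was at least 2-fold lower than in Raji, U937 and Jurkat. miR-492, miR-302c, miR-503 and miR-1537 had 42 to 59 counts in Meg-01 and 47 to 110 in the other lines. Of the 5 members detected in all 4 other lines and not in Meg-01, miR-15a alone had large counts elsewhere, and miR-492, miR-708, miR-1289 and miR-513a-3p had 35 to 42 counts in Meg-01 and 38 to 78 in the other lines.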

How the data were processed

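The nCounter human miRNA assay was run on total RNA of each line. The authors deposited the raw counts of each probe as the instrument read them, for 654 human, 80 virus, 5 housekeeping, 8 negative and 6 positive probes. A second deposited table holds signal after background subtraction, which equals the raw count minus a constant per line with negative results at 0. For Jurkat and K562 that constant was not the mean of their own negative controls, and for the other 3 lines it was. Which of the kit versions the study names was used for the lines is not given in the sources used here.

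Counts were scaled by the geometric mean of the 100 probes with the highest mean over the 5 lines, and a probe was detected above the mean plus 2 SD of the line's scaled negative controls. The threshold was not subtracted. Ratios have exact conditional binomial 95% intervals and counts exact Poisson ones, and these cover counting error only, not cultures or lanes. A higher call needed detection in Meg-01 and a lower call detection in the other line, each with a ratio of at least 2-fold. At 109731 human counts in Meg-01, the 183 members span counts near the background, where intervals are wide. The files give 1 sample per line, so no test was made. Detection, ratios and calls were tested on simulated counts scaled by the median of ratios, so the scaling used here was not tested.

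The named miRNAs were the 10 with the largest lowest ratio, the 10 with the smallest highest ratio, the 10 most abundant in Meg-01, the 5 largest and 5 smallest ratios of each comparison, and members of 16 lists. The lists were megakaryocyte and progenitor, erythroid, myeloid, lymphoid, let-7, miR-99/100 and miR-125, miR-17-92, miR-23/24/27, miR-221/222, miR-15/16, miR-29, miR-30, immune-activation, MYC-repressed, RNA fragments and other tissues. The members and lists were chosen with earlier results of these data known. The chromosome 14 list, the arm pairs, and other single probes named outside these rules were chosen after their values were seen.

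RefSeq gave sequences for 478 of the 654 probes and 137 of the 183 members, on GRCh38.p14. For probes with no arm in their name, the arm was the one the study's table names (169 probes), the only one listed (25 probes), or the usual one (miR-376c, miR-495 and let-7c). Alternatives were 5 other scalings, 2 other thresholds, subtraction of the threshold, the deposited signal, fold limits of 1.5 and 4, intervals, and leaving out a line. Python 3.11.15, numpy 2.4.6, pandas 2.3.3, scipy 1.17.1 and matplotlib 3.10.9 were used.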

Additional observations from a re-analysis of the deposited data

Results flagged for a closer look

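Of the 80 virus miRNA probes, which no comparison used, 8 were above the Meg-01 threshold. Of these 8, 6 were above the threshold in all 5 lines, and 0 were at least 2-fold higher in Meg-01 than in every other line. The highest of the virus probes had 346 raw counts in Meg-01. No control sample without human RNA was analysed here, so what these probes read was not tested.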

How the results depend on the processing

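No paired analysis was possible because each line has 1 sample. The 13 miRNAs higher than in every line kept that call in every setting, except that 5 of them passed a 4-fold limit and that miR-335 and miR-543 were lost when the threshold was subtracted, which left 11. The higher count was 20 without scaling. The lower count of 2 was 1 without scaling, with positive controls, with the sum of human probes, with the median of ratios and at 4-fold. It was 8 at 1.5-fold and 9 without K562.

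The comparisons moved more, and the values follow as higher, then lower. Without scaling, Raji had 53 and 10, K562 46 and 11, and U937 13 lower. Positive controls gave 46 and 11 for Raji and 45 and 13 for K562, the median of ratios 44 and 13 for Raji and 45 and 13 for K562, and the sum of probes 45 and 12 for K562, 21 lower for Raji and 14 lower for Jurkat. With the mean of the negative controls as threshold, 199 were lower than in Raji, 38 than in U937 and 76 than in K562, of 483 members. Subtraction of the threshold raised the lower count against Jurkat from 22 to 56 and that against U937 from 21 to 39. The deposited signal gave 37 higher than in Raji and 44 than in K562. At 1.5-fold, 42, 67, 40 and 57 were lower than in Jurkat, Raji, U937 and K562. At 4-fold, Jurkat had 22 and 9, Raji 15 and 10, U937 15 and 8, and K562 11 and 7. Of 60 named ratios of 32 probes, 7 changed sign in some setting, and 0 of these 7 were past 2-fold as reported. They were the ratios to the nearest line of miR-25, miR-130b, miR-148a, miR-19a, miR-302c and miR-503, which turned under another scaling, and of miR-492, which turned when the threshold was subtracted. The high Raji threshold and its depth limit the bounds against that line.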

Other observations

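Several further families and groups were measured, and their counts are given as at least 2-fold higher or lower in Meg-01, beside the shares of all members called higher (23.0% against Jurkat, 13.1% against Raji, 16.9% against U937 and 15.3% against K562) or lower (12.0%, 23.0%, 11.5% and 18.0% in that order). Of 3 miRNAs known from immune activation, 3 were lower than in Raji (2 to 3 over the 6 scalings) and 2 lower than in U937, while 2 were higher than in Jurkat and 1 higher than in K562. miR-155, known from activated B cells and myeloid cells, had 121 raw counts in Meg-01, 32 in K562, 254 in Raji, 253 in U937 and 36 in Jurkat. miR-146a, known as an NF-kappaB target, had 46 in Meg-01, 34 in K562, 206 in Raji, 147 in U937 and 53 in Jurkat, a ratio of 0.105 (0.0745 to 0.145) against Raji. miR-21 had 1486 in Meg-01, 1588 in K562, 2643 in Raji, 673 in U937 and 350 in Jurkat, so that it was 3.91-fold (3.48 to 4.40) higher than in Jurkat. Unscaled counts also put 1 of the 3 higher than in U937.

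The miR-29 family, known to act on collagen and DNA methyltransferase transcripts, split by member and line. Of its 3 members, 2 were lower than in Jurkat (1 to 2 over the scalings), 2 lower than in Raji and 1 lower than in U937 (0 to 1), and 1 was higher than in K562. Without scaling, 1 was also higher than in Raji. miR-29a had 592 in Meg-01, 380 in K562, 1483 in Raji, 1040 in U937 and 451 in Jurkat, a ratio of 0.187 (0.170 to 0.206) against Raji. miR-29c had 507 in Meg-01, 130 in K562, 242 in Raji, 301 in U937 and 1989 in Jurkat, and was 2.36-fold (1.95 to 2.89) higher than in K562. Of the 5 members of the miR-30 family, none passed 2-fold against Jurkat, U937 or K562, and 3 were lower than in Raji (0 to 3).

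Of 4 miRNAs known to be repressed by MYC, 3 were members. The 1 call among them was miR-22, lower than in K562 (0 to 1), with 67 counts in Meg-01 and 116 in K562. In raw counts without scaling, 1 of the 3 was higher than in Raji. miR-26a had 611 in Meg-01, 442 in K562, 280 in Raji, 488 in U937 and 590 in Jurkat. Of 16 probes for miRNAs of other tissues, 4 were members, and 1 of them, miR-9 of neural tissue, gave each call. It had 115 in Meg-01, 31 in K562, 157 in Raji, 240 in U937 and 573 in Jurkat, and was lower than in Jurkat, Raji (0 to 1) and U937 and at least 2.01-fold higher than in K562.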
